A study of Mus musculus with 13 samples.

Results

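The 33 genes described here encode the machinery that copies DNA in S phase. They were chosen by name, as rows of the deposited count table that encode origin licensing factors, parts of the replication fork, and enzymes that supply its nucleotides. All 33 were found among the 35976 symbols of the table, and all 33 were among the 14702 genes with enough counts to be tested. The cells were primordial germ cells from male mouse embryos at E14.5, the fetal cells that later give rise to sperm. All 4 groups carry Oct4-GFP, a green fluorescent reporter of a gene active in germ cells, and were sorted on it. The groups differ in Tet1, the gene of an enzyme that oxidises 5-methylcytosine in DNA. WT is the wild type, KO a knockout, HxD an allele known to encode a catalytically inactive protein, and V an allele known to encode a protein that stalls at 5-hydroxymethylcytosine, and each had 3 libraries. The sources used here do not give the strain, whether embryos were pooled, or which stretch of Tet1 the knockout lacks. Whether the replicates of a group were separate embryos is also not stated, and the p-values then cover only the variation among these libraries, which could be technical.

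Replication starts when the origin recognition complex, with Cdc6 and Cdt1, loads the ring of Mcm2 to Mcm7 onto DNA before S phase. Cdc45 and the GINS complex then join this ring to form the active helicase, the polymerases start and extend the new strands, and the PCNA clamp, loaded by replication factor C, holds them on DNA. Many of these genes are transcribed at the entry into S phase under E2F factors and are low in cells that have left the cycle. Male germ cells of the mouse fetus stop dividing at around this stage and rest in a G1-like arrest until after birth.

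Because many genes of this machinery are known E2F targets, the stretches just before the transcription start of 4 licensing genes are shown. They come from RefSeq, build GRCm38.p6, whose role in the deposited counts is not given, and each holds the 160 bases before the annotated start, read 5′ to 3′ on the strand of the gene. The positions are chr8:75109349-75109508 (plus strand) for Mcm5, chr1:128359706-128359865 (minus strand) for Mcm6, chr11:98907991-98908150 (plus strand) for Cdc6 and chr4:108579294-108579453 (plus strand) for Orc1. Capitals mark E2F-type words, that is TTTCCCGC, TTTGGCGC, TTTCGCGC or TTTGCCGC on either strand.
Mcm5: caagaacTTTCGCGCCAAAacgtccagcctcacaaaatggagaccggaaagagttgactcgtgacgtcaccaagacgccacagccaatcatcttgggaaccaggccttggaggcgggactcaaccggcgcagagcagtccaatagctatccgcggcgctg
Mcm6: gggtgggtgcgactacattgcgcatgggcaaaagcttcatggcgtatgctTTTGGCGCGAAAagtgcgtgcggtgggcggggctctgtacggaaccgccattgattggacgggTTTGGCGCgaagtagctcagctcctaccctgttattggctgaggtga
Cdc6: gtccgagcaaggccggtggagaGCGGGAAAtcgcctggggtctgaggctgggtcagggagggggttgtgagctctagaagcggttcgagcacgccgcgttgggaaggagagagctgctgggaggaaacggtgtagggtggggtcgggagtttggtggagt
Orc1: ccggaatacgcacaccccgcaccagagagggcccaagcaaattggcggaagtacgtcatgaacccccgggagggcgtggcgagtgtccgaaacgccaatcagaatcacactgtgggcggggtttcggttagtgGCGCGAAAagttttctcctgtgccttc

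In Mcm5 and in the upstream site of Mcm6, a word on one strand overlaps one on the other. RefSeq promoter windows, from 250 bases before to 50 after a start, were at hand for 27 of the 33 genes, and those of Mcm4, Pole, Gins1, Gins2, Gins4 and Rfc2 were not used. At least 1 of the 4 words stood in a window of 12 of these 27 genes (44.4%), against 4.58% of the 10961 tested genes with a window and 2.6% of all 27025 genes in the promoter table. The 12 were Mcm3, Mcm5, Mcm6, Mcm7, Orc1, Cdc6, Cdt1, Gins3, Pola1, Pold1, Rfc3 and Lig1. The word CCAAT, on either strand, stood in a window of 63% of the replication genes and 43.2% of the tested genes. The replication windows held a median of 24 CpG sites (range 5 to 40), against a median of 20 for windows of tested genes and 7 for all windows. These matches describe letters in the windows and were not tested as sites.

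Library totals ran from 13584484 to 29641963 counts. Values are CPM, the edgeR unit of counts scaled to a common library size after TMM normalization, and fold changes are given on the log2 scale with their standard error (SE). Tet1 itself had 201 to 225 CPM in the KO libraries and 364 to 735 CPM in all others (KO against WT -1.51, SE 0.17, edgeR adjusted p = 1.41e-05). Markers fixed for 7 other gonadal or blood cell types had low summed levels in most libraries: Leydig, interstitial, macrophage, erythroid and granulosa markers each summed to 35.7 CPM or less. Sertoli markers summed to 147 to 201 CPM in 10 libraries, of which 128 to 181 CPM were Dmrt1, a gene that germ cells are also known to express. The sum was 351 CPM in WT 3 and 499 CPM in V 2, with Amh at 59.6 and 216 CPM there, while Sox9 was at 0 in all WT and HxD libraries and at 9.14 CPM in V 2. The endothelial sum of 121 to 280 CPM was mostly Pecam1, which germ cells are known to express. The 10 germ cell markers summed to 4784 to 4913 CPM in WT and to 3505 to 4414 CPM in the mutants, and the part of this difference in the results was not tested. The lower sum was mostly Dazl (means of 1754 CPM in WT, 849 in KO, 793 in HxD and 953 in V) and Ddx4 (862, 532, 590 and 704), and the list did not move as a set: in KO, 5 of the 10 markers had a positive and 5 a negative fold change, with a median of 0.06. Tfap2c, for example, had means of 76.5 CPM in WT and 128 CPM in KO. Of the 10 markers, edgeR called 1 lower in KO (adjusted p = 0.0094) and 1 lower in HxD (0.0093). These compare with 0.218% and 0.034% of all genes called in either direction. A second program, DESeq2, called Ddx4 and Dazl in KO, and Pou5f1 and Dazl in HxD and in V. It called 1.48%, 1.41% and 0.52% of all its genes there. Nanos2 had the lowest fold change in KO (-3.50) and HxD (-2.45), and DESeq2 did not call it in any mutant. In each of WT 3, KO 2, HxD 2 and V 2, 1 of the 10 markers had a count of 0. Library WT 3 had the fewest genes with a count (11529) and V 3 the fewest counts, so results were also computed without them.

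Apart from Gins2 and Gins3, the replication genes were abundant in these cells in every genotype, and no member passed the test between any pair of genotypes. Gins2 and Gins3 had means of 9.98 and 13.2 CPM, below the median of 20.4 CPM over all genes tested. As a sum over the 33 genes, WT libraries had 7350 ± 823 CPM (SD, n = 3) and KO libraries 7541 ± 488 CPM. The HxD libraries had 7537 ± 316 CPM and the V libraries 7320 ± 539 CPM. The group means lay closer together than the replicates within WT, which spanned 6502 CPM in WT 1, 8146 in WT 2 and 7403 in WT 3. The highest library outside WT was KO 1 with 8029 CPM and the lowest V 1 with 6739 CPM. In bulk samples, fewer cells in S phase and less of these transcripts per cell cannot be told apart.

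**Figure D1:**
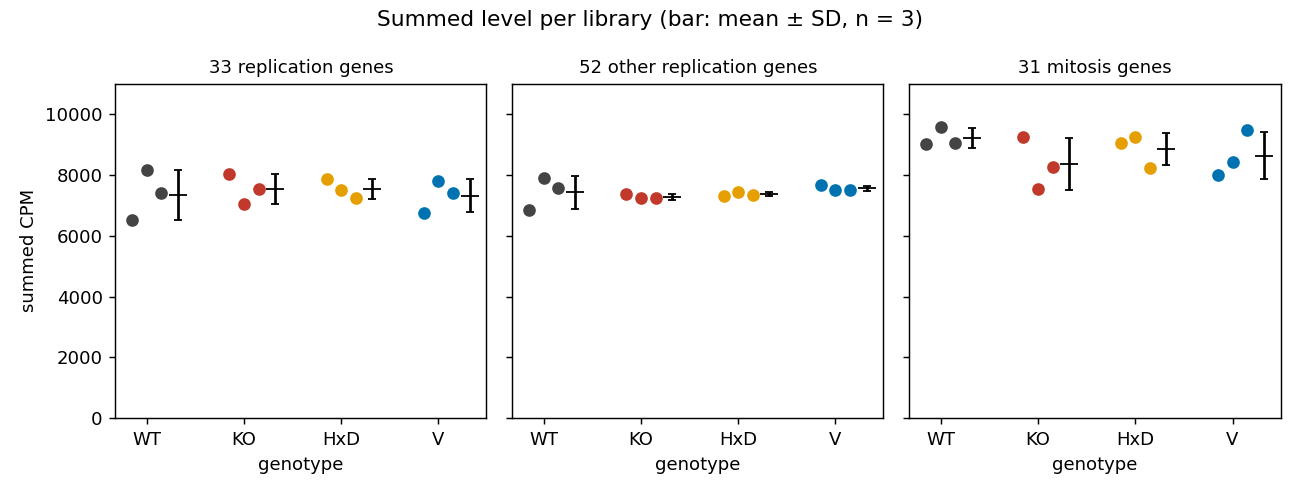
Summed CPM per library (vertical axis, from 0) for the 33 replication genes, 52 other replication genes and 31 mitosis genes, by genotype (points: libraries in replicate order, bars: mean ± SD, n = 3). For the 33 genes the 4 genotypes overlap, with means from 7320 to 7541 CPM and WT 1 as the lowest library at 6502 CPM.

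Of the 33 genes, edgeR called 0 in KO against WT, where it called 0.218% of all genes tested. It called 0 in HxD against WT (0.034% of all genes) and 0 in V against WT (0% of all genes). Between the mutants it also called 0 members in HxD against KO (0.0068% of all genes), V against KO (0.0204%) and V against HxD (0%). DESeq2 called 0 members in each of the 6 comparisons as well, where it called 1.48%, 1.41% and 0.52% of its genes against WT and 0.536%, 0.407% and 0.59% between the mutants, in the same order. At an unadjusted p under 0.05, edgeR had 1 member higher and 0 lower in KO (3.75% and 4.54% of all genes), 2 higher and 1 lower in HxD (3.42% and 4.82%), and 1 higher and 1 lower in V (2.85% and 3.2%). Between mutants it had 0 higher and 0 lower in HxD against KO (1.88% and 2.79% of all genes) and in V against KO (2.29% and 1.81%), and 1 higher and 0 lower in V against HxD (3.43% and 1.63%).

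For most of the 33 genes the data also bound the size of any change. The 95% interval of the fold change, unadjusted for the number of genes, lay within a 2-fold change either way for 29 of 33 genes in KO against WT (87.9%), 28 of 33 in HxD (84.8%) and 29 of 33 in V (87.9%). Over all genes tested the shares were 35.2%, 35.8% and 36.2%. Between mutants it was 31 of 33 in HxD against KO (93.9%, against 38.1% of all genes), 30 in V against KO (90.9%, against 37.9%) and 30 in V against HxD (90.9%, against 37.8%). The median SE of the 33 genes in KO against WT was 0.21, and that of all genes tested was 0.51. The genes were also well expressed, with a median of 149 CPM over the members against 20.4 CPM over all genes tested, so narrow intervals and deep counts came together. The median coefficient of variation within genotypes was 15.8% for the members, 35.3% for all genes tested and 16.5% for the 4846 tested genes with a mean of at least 50 CPM.

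**Figure D2:**
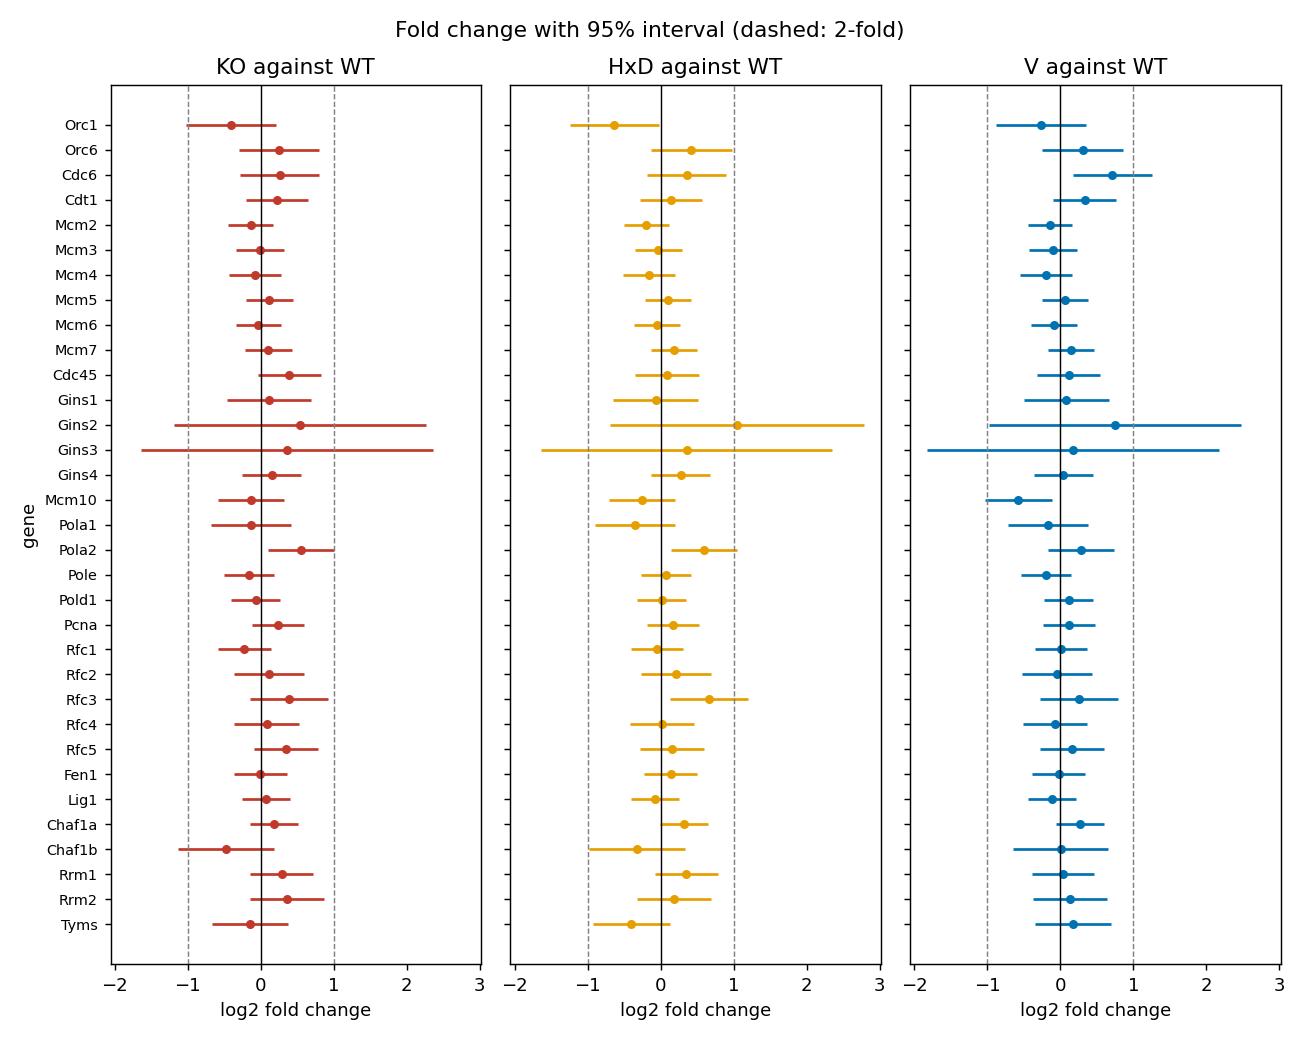
Log2 fold change (horizontal axis) of each of the 33 replication genes (vertical axis) in KO, HxD and V against WT, with its 95% interval as a line and a 2-fold change as dashed lines. Intervals of 29, 28 and 29 genes lie inside the dashed lines, and those of Gins2 and Gins3 are the widest.

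The median log2 fold change of the 33 genes was 0.11 in KO, 0.10 in HxD and 0.06 in V, against 0.00, -0.02 and 0.01 over all genes tested. A positive value was seen for 20 of 33 genes in KO (50.3% of all genes), 21 in HxD (47.6%) and 21 in V (51%). The 3 comparisons share the WT libraries, and the medians depended on WT 1, without which they were 0.03, 0.01 and 0.01. In WT 1, 6 of the 33 genes lay above their mean over all libraries, against 24 in WT 2 and 14 in WT 3. Between mutants the medians were -0.02 in HxD against KO, -0.05 in V against KO and -0.04 in V against HxD.

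**Figure D3:**
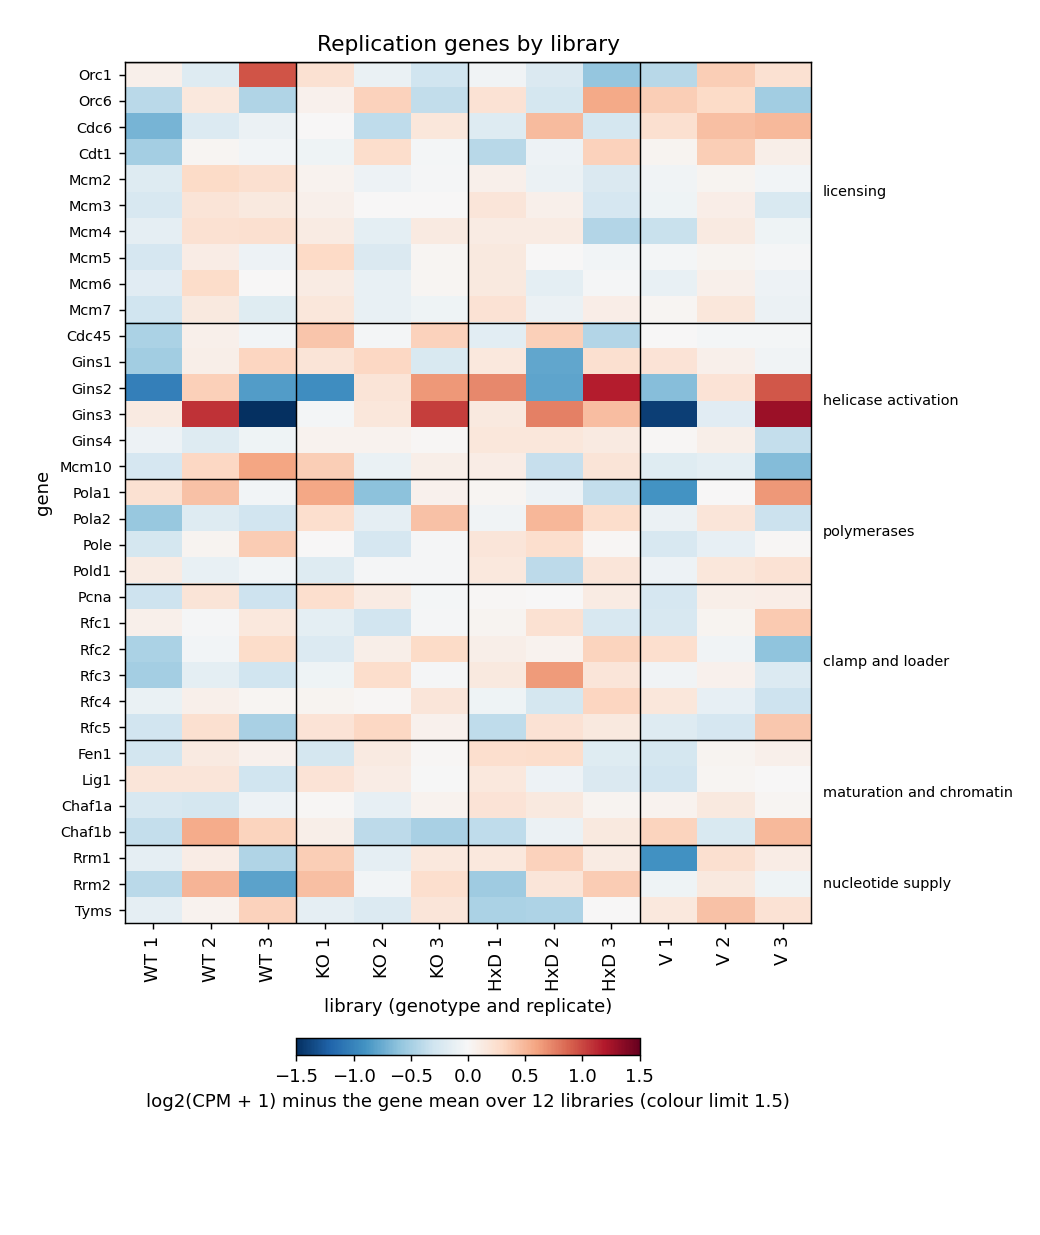
Log2(CPM + 1) of each of the 33 replication genes (rows, grouped by role) in each of the 12 libraries (columns), as the difference from the gene's own mean, with colours limited at 1.5. Blue is below the mean and red above: the WT 1 column is mostly blue, with 6 of 33 genes above their mean, and the darkest cells of both colours are in the rows of Gins2 and Gins3.

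The licensing factors were led by the 6 subunits of the MCM ring, the helicase core that marks every licensed origin. Mcm2 had 629, 875 and 846 CPM in WT 1 to 3, 743, 684 and 710 in KO, 759, 675 and 617 in HxD, and 695, 737 and 696 in V. The WT libraries held both the highest value and one of the lowest, and the genotypes overlapped. Its fold change was -0.14 in KO (SE 0.15, edgeR adjusted p = 0.963), -0.20 in HxD (SE 0.15, 0.761) and -0.14 in V (SE 0.15, 1). For the whole ring the data set close bounds: the 6 fold changes ran from -0.14 to 0.12 in KO, -0.20 to 0.19 in HxD and -0.20 to 0.14 in V. Their 95% intervals reached no lower than -0.56 (Mcm4 in V) and no higher than 0.50 (Mcm7 in HxD) in any comparison with WT.

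Per kilobase of principal transcript, 5 of the 6 ring subunits had the highest levels of the members. Mcm2, Mcm6 and Mcm7 had 214, 214 and 212 CPM per kilobase, Mcm3 172, Mcm5 156 and Mcm4 101, as means over 12 libraries. The polymerase clamp gene Pcna followed with 144, the ligase gene Lig1 with 141 and Pold1 with 113, while Gins2 and Gins3 had 2.56 and 5.25. The annotation used by the authors is not given, so these levels per length rest on GENCODE transcript lengths. The MCM genes also had more similar patterns over the libraries than the members as a whole. Over the 12 libraries, the median correlation of log2 CPM was 0.65 over the 15 pairs of MCM genes (range 0.13 to 0.81). It was 0.11 over the 528 pairs of all members and 0.01 over all pairs of tested genes of at least 50 CPM. All genes of a library share its scaling and depth. The MCM genes had means of 361 to 722 CPM, against a median of 113 CPM over those tested genes, and correlations at matched levels were not computed. With genotype means removed the median MCM correlation was 0.72, so the shared variation lay between libraries of a genotype. All 6 MCM genes were below their mean in WT 1 and above it in WT 2, by 0.14 to 0.30 and 0.11 to 0.28 on the log2 scale.

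Among the loaders of the ring, Cdc6 stood highest in V. This ATPase helps to bring the MCM ring to the origin. It had 38.5, 54.5 and 59.3 CPM in WT, 63.3, 47.9 and 71.1 in KO, 54.7, 87.9 and 52.3 in HxD, and 74.3, 86.2 and 88.7 in V. Each V library was above each WT and KO library, and HxD 2 reached the level of the V libraries. The difference of 1.63-fold in V did not pass the test over all genes (log2 0.71, SE 0.27, 95% interval 0.17 to 1.25, edgeR adjusted p = 0.718). Against KO it was 0.45 (SE 0.27, edgeR adjusted p = 1).

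Cdt1, which works with Cdc6 and is blocked by geminin after licensing, had 86.9, 127 and 121 CPM in WT, 119, 150 and 122 in KO, 92.9, 118 and 158 in HxD, and 128, 161 and 133 in V. The V libraries lay just above WT (0.33, SE 0.21, edgeR adjusted p = 0.851), and the value was 0.18 without WT 1. Orc1, the origin subunit that is itself controlled over the cycle, had 59.2, 49.1 and 109 CPM in WT, 66.4, 52.3 and 45.5 in KO, 54.4, 48.4 and 37.5 in HxD, and 42.1, 72.8 and 66.4 in V. Its difference in HxD was -0.63 (SE 0.30, edgeR adjusted p = 0.595), and -0.21 without WT 3, the library with the highest value. Orc6, a smaller subunit of the same complex, ranged from 53.3 to 114 CPM with all genotypes overlapping.

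The factors that switch the helicase on were Cdc45, the 4 GINS subunits and Mcm10. Cdc45 had 85.7, 126 and 116 CPM in WT, 160, 117 and 152 in KO, 107, 153 and 88.0 in HxD, and 120, 117 and 117 in V. KO 1, KO 3 and HxD 2 were the 3 highest libraries, and the genotypes overlapped (KO against WT 0.39, SE 0.21, edgeR adjusted p = 0.637, and 0.24 without WT 1). HxD differed from KO by -0.30 (SE 0.21, edgeR adjusted p = 0.940), which became -0.56 without HxD 2 and -0.14 without HxD 3. Mcm10, a scaffold of the active fork, had 98.5, 146 and 178 CPM in WT, 152, 109 and 125 in KO, 127, 92.1 and 134 in HxD, and 103, 106 and 74.6 in V. V 3 was the lowest library and WT 3 the highest. In V it differed from WT by -0.57 (SE 0.22, edgeR adjusted p = 0.730), by -0.37 without WT 3 and by -0.23 with WT 3 and V 3 both set aside. All 3 V libraries lay below all KO libraries (-0.44, SE 0.22, edgeR adjusted p = 1).

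The GINS subunits were uneven although they form 1 complex. Gins4 was among the steadiest members, with 78.1 to 114 CPM and a mean coefficient of variation within genotypes of 5.95%, and Gins1 had 35.3 to 76.8 CPM. Gins2 ranged from 3.71 to 20.7 CPM and Gins3 from 0 to 26.1 CPM, with coefficients of variation of 59.1% and 65.3%. Gins3 had a count of 0 in WT 3, which allows up to 0.131 CPM at a floor of 3 counts, for counting error only. Their intervals in KO against WT, -1.19 to 2.26 for Gins2 and -1.64 to 2.35 for Gins3, reach past a 2-fold change in both directions, so a change of that size was not detectable with this spread between libraries.

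Of the polymerase genes, Pola2 had the smallest p of all members both in KO and in HxD. It encodes the B subunit of the polymerase alpha and primase complex, which starts each new strand. Pola2 had 64.8, 84.5 and 79.0 CPM in WT, 115, 87.7 and 131 in KO, 92.7, 137 and 116 in HxD, and 90.6, 109 and 76.9 in V. All KO and HxD libraries lay above all WT libraries, by a narrow margin for KO 2. The difference did not pass the test over all genes in KO (1.46-fold, log2 0.55, SE 0.22, edgeR adjusted p = 0.482) or in HxD (1.51-fold, 0.60, SE 0.22, edgeR adjusted p = 0.487), and in V it was 0.28 (SE 0.22, edgeR adjusted p = 0.942). Its partner Pola1, the catalytic subunit, did not show the same order: it ranged from 81.4 CPM in V 1 to 241 CPM in V 3, with fold changes of -0.13, -0.35 and -0.17.

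Pole, the catalytic subunit of the leading strand polymerase, had 280, 345 and 436 CPM in WT, 337, 281 and 331 in KO, 382, 399 and 340 in HxD, and 283, 307 and 338 in V. The HxD libraries lay above those of KO (0.24, SE 0.17, edgeR adjusted p = 0.942) and V (V against HxD -0.27, SE 0.17, edgeR adjusted p = 0.874), and WT spanned all of them. Pold1, the catalytic subunit of the lagging strand polymerase, had 424, 359 and 379 CPM in WT, 340, 383 and 384 in KO, 435, 295 and 442 in HxD, and 368, 436 and 451 in V. The genotypes overlapped, with fold changes from WT of -0.07, 0.01 and 0.11 and 95% intervals between -0.41 and 0.45.

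The clamp and its loader gave one further gene with higher values in mutants, Rfc3, a small subunit of replication factor C. It had 39.0, 50.2 and 45.0 CPM in WT, 53.1, 67.2 and 55.2 in KO, 61.7, 87.6 and 63.3 in HxD, and 53.7, 58.1 and 48.4 in V. The KO and HxD libraries did not overlap WT, and V 3 fell inside the WT range. The value was 0.66 in HxD (1.58-fold, SE 0.26, edgeR adjusted p = 0.527) and 0.39 in KO (SE 0.26, edgeR adjusted p = 0.733). The other loader subunits did not share this order: Rfc1, the large subunit, had 254, 238 and 268 CPM in WT, 218, 197 and 237 in KO, 246, 283 and 204 in HxD, and 204, 247 and 316 in V, which put KO below WT (-0.22, SE 0.18, edgeR adjusted p = 0.829).

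Rfc5 had 120, 173 and 104 CPM in WT, 169, 181 and 153 in KO, 112, 170 and 161 in HxD, and 127, 123 and 194 in V, with overlapping genotypes (KO 0.34, SE 0.22, edgeR adjusted p = 0.692, 0.58 without WT 2 and 0.20 without WT 3). Rfc2 and Rfc4 ranged from 63.3 to 122 CPM and 72.4 to 112 CPM. Pcna, the sliding clamp, ranged from 175 to 258 CPM, with fold changes of 0.24, 0.17 and 0.11.

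Of the genes that finish the new strands and wrap them in chromatin, Chaf1a was the steadiest. It encodes the large subunit of CAF-1, which places histones on new DNA. Chaf1a had 176, 172 and 197 CPM in WT, 210, 190 and 214 in KO, 238, 230 and 214 in HxD, and 215, 230 and 212 in V. All HxD and V libraries lay above all WT libraries, with differences of 0.33 (1.25-fold, SE 0.16, edgeR adjusted p = 0.60) and 0.27 (SE 0.16, edgeR adjusted p = 0.834) that did not pass the test over all genes. Chaf1b, the middle subunit, ranged from 29.4 CPM in KO 3 to 61.6 in WT 2, with fold changes of -0.48, -0.32 and 0.00.

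Lig1, the ligase that joins Okazaki fragments, had 506, 502 and 362 CPM in WT, 511, 482 and 443 in KO, 495, 421 and 384 in HxD, and 364, 452 and 447 in V. Its 95% intervals against WT lay between -0.45 and 0.40. Fen1, the flap nuclease of the same step, ranged from 185 to 268 CPM with fold changes of -0.01, 0.14 and -0.02.

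Nucleotide supply was represented by both ribonucleotide reductase subunits and thymidylate synthase. Rrm1, the large subunit, had 281, 333 and 226 CPM in WT, 399, 280 and 345 in KO, 344, 391 and 337 in HxD, and 164, 363 and 332 in V. HxD lay just above WT (0.35, SE 0.21, edgeR adjusted p = 0.629), KO overlapped it (0.29, SE 0.21, edgeR adjusted p = 0.797), and V 1 was the lowest library. Rrm2, the subunit that is limiting in S phase, ranged from 84.9 CPM in WT 3 to 212 in WT 2, so the WT libraries alone held both extremes.

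Tyms, which makes thymidylate, had 54.4, 62.2 and 76.3 CPM in WT, 54.3, 51.8 and 68.0 in KO, 42.7, 43.2 and 60.0 in HxD, and 66.7, 81.4 and 69.4 in V. The V libraries lay above those of HxD, and WT overlapped both. V against HxD gave the smallest p of the members between mutants (1.49-fold, log2 0.58, SE 0.26, edgeR adjusted p = 0.861).

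**Figure D4:**
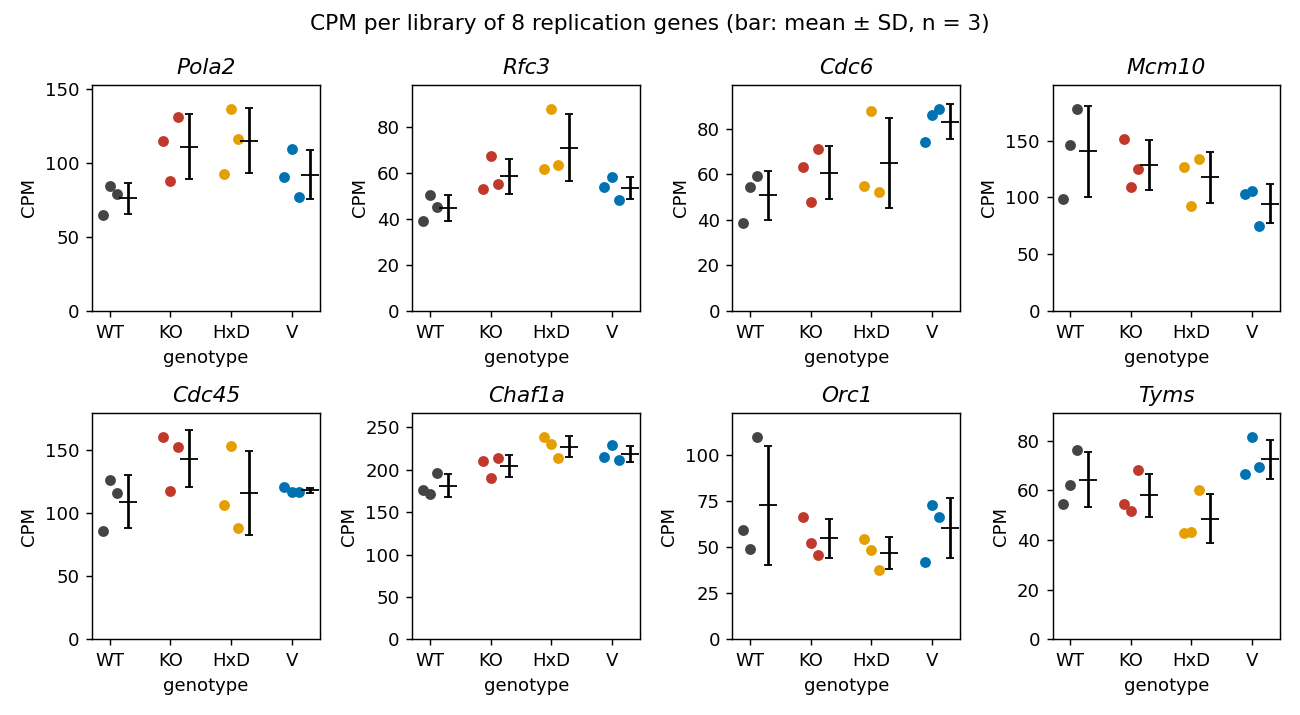
CPM (vertical axes, from 0) in each library of 8 members with small p in at least 1 comparison, by genotype (points: libraries in replicate order, bars: mean ± SD, n = 3). All KO and HxD points of Pola2 and Rfc3 lie above WT and all V points of Cdc6 lie above WT, while the widest spread is within WT for Orc1 and Mcm10.

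Members whose libraries did not overlap between groups were counted beside the same share of all genes. In KO, 3 of 33 (9.09%) had every library above WT (Pola2, Rfc3 and Gins4, against 8.13% of all genes) and 1 (3.03%) every library below (Rfc1, against 8.15%). In HxD, 5 (15.2%) lay above (Chaf1a, Pola2, Rfc3, Rrm1 and Gins4, against 5.26% of all genes) and 0 below (against 7.22%). In V, 3 (9.09%) lay above (Cdc6, Chaf1a and Cdt1, against 5.75%) and 0 below (against 6.06%). Between mutants, HxD had 2 above (6.06%) and 0 below KO, against 3.69% and 5.64% of all genes, and V had 1 above and 1 below KO (3.03% each), against 5.15% and 5.19%. V had 1 above (3.03%) and 3 below HxD (9.09%), against 4.79% and 3.2% of all genes. The shares above WT in all 3 mutants, above KO in HxD and below HxD in V were higher than those of all genes, and the other shares were lower. Each of the higher shares rests on 2 to 5 genes, and the comparisons share libraries. Rfc3 and Gins4, for example, count both above WT in HxD and below HxD in V. None of these members passed the test over all genes. The 12 genes with an E2F-type word had median fold changes of 0.09 in KO, 0.06 in HxD and 0.09 in V, and the 15 with a window but no such word had 0.18, 0.14 and 0.11. The ranges of these 2 sets overlapped: -0.41 to 0.39 with the word and -0.48 to 0.55 without it in KO. They were -0.63 to 0.66 and -0.40 to 0.60 in HxD, and -0.26 to 0.71 and -0.57 to 0.30 in V. All of these comparisons use the same WT libraries, and the difference between the sets was not tested.

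The other genes of the pathway, taken from a fixed list of 52 further replication genes, held 1 called gene. Of 51 tested, 0 were called higher and 1 lower in KO (0.218% of all genes called in either direction), with a median of -0.06. In HxD (median -0.02) and V (median 0.08) 0 were called, against 0.034% and 0% of all genes. The called gene was Samhd1, whose enzyme breaks down deoxynucleotides and so opposes ribonucleotide reductase. Samhd1 had 129, 103 and 121 CPM in WT, 45.9, 51.9 and 68.3 in KO, 58.7, 104 and 103 in HxD, and 116, 81.5 and 104 in V. All KO libraries lay below all WT and V libraries, and HxD 1 fell among them. It fell 2.13-fold in KO (log2 -1.09, SE 0.24, edgeR adjusted p = 0.0438), a call kept in 12 of 19 alternative fits. It was lost without WT 1 (0.116), WT 3 (0.0835), KO 1 (0.145) or KO 2 (0.0577), with only the 2 genotypes (0.0801), under the stricter filter (0.107), and with WT 3 and V 3 set aside (0.163), all as edgeR adjusted p. Its values were -0.41 in HxD (SE 0.24, edgeR adjusted p = 0.620) and -0.23 in V (SE 0.24, edgeR adjusted p = 1), and V against KO gave 0.86 (SE 0.24, edgeR adjusted p = 0.638).

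From the same list, Wdhd1, a fork scaffold that links the helicase to polymerase alpha, had 339 ± 68.2 CPM in WT and 227 ± 11.2 in KO (SD, n = 3; log2 -0.58, SE 0.18, edgeR adjusted p = 0.239). Rnaseh2c, a subunit of the nuclease that removes ribonucleotides from DNA, had 43.1 ± 4.24 CPM in WT, 74.7 ± 6.17 in KO and 83.5 ± 6.25 in HxD. These differences were 0.80 (SE 0.25, edgeR adjusted p = 0.266) and 0.96 (SE 0.26, edgeR adjusted p = 0.256), and DESeq2 called the one in HxD (adjusted p = 0.00755). Mcmbp, which binds MCM subunits, had 231 ± 39.1 CPM in HxD against 333 ± 77.5 in WT (-0.53, SE 0.18, edgeR adjusted p = 0.429), and the difference was -0.33 without WT 3.

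Of 28 tested regulators of S phase entry, edgeR called 0 against WT in any mutant, with medians of -0.08 in KO, 0.02 in HxD and 0.08 in V. Over all genes it called 0.218%, 0.034% and 0%. DESeq2 called 1 regulator in each, Rb1, and 1.48%, 1.41% and 0.52% of all its genes. Rb1 encodes the retinoblastoma protein, which holds E2F factors in check. Rb1 had 130, 111 and 116 CPM in WT, 69.7, 70.4 and 80.6 in KO, 78.2, 64.7 and 56.7 in HxD, and 46.1, 47.5 and 61.6 in V. Each mutant library lay below each WT library. The difference was -1.20 in V (2.30-fold, SE 0.23, edgeR adjusted p = 0.171), -0.84 in HxD (SE 0.23, edgeR adjusted p = 0.256) and -0.69 in KO (SE 0.23, edgeR adjusted p = 0.289). DESeq2 gave adjusted p = 4.06e-06 in V and 0.00626 in HxD. The V value stayed above the threshold in 9 of the 19 alternative fits, up to 0.569, and fell below it in the others.

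The 8 cell cycle inhibitors, the 31 mitosis genes and the 20 genes of the response to stalled forks had 0 members called by edgeR against WT in any mutant. The mitosis medians were -0.14 in KO, -0.04 in HxD and -0.04 in V, and their summed level was 9215 ± 320 CPM in WT and 8354 ± 855 CPM in KO (SD, n = 3). HxD had 8841 ± 532 CPM and V 8633 ± 762 CPM, and the groups overlapped. The inhibitors had medians of 0.04, 0.01 and 0.39. At an unadjusted edgeR p under 0.05, 2 of the 8 were higher and 0 lower in HxD (3.42% and 4.82% of all genes), and 0 either way in KO and V. The inhibitor sum was 391 ± 42.4 CPM in WT, 386 ± 42.8 in KO, 486 ± 71.1 in HxD and 457 ± 96.8 in V (SD, n = 3), with overlapping groups. The medians of the fork response genes were -0.07, -0.09 and -0.17. In V, 18 of the 20 had a negative fold change, against 7185 of all 14702 genes tested, and in KO and HxD 12 each, against 7271 and 7591. At an unadjusted edgeR p under 0.05, 0 of the 20 were higher and 2 lower in V (2.85% and 3.2% of all genes). KO also had 0 higher and 2 lower (3.75% and 4.54%), and HxD 0 either way (3.42% and 4.82%). Of the 20, 5 (25%) had every library below WT in KO, 2 (10%) in HxD and 4 (20%) in V. Over all genes these shares were 8.15%, 7.22% and 6.06%. Their summed level was 1913 to 2345 CPM in the V libraries, below the 2497 to 2750 CPM of the WT libraries, while KO (2088 to 2560 CPM) and HxD (2315 to 2580 CPM) overlapped WT. DESeq2 called 1 of these 20 genes in V, where it called 0.52% of all its genes. The called gene was Etaa1, an activator of the checkpoint kinase ATR. It had 103 ± 12.5 CPM against 153 ± 4.64 in WT (-0.58, SE 0.19, edgeR adjusted p = 0.579, DESeq2 adjusted p = 0.0329). Atr itself had 195 ± 61.6 CPM in V against 324 ± 59.8 in WT (-0.73, SE 0.24, edgeR adjusted p = 0.621). Its difference was -0.48 without V 1 and -1.04 with WT 3 and V 3 set aside, and edgeR called it when no filter on low counts was used (adjusted p = 0.0468).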

How the data were processed

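The deposited values are whole read counts for each gene symbol, not normalized by the authors, in 12 named libraries. Trim Galore 0.6.7 (a trimmer), STAR 2.7.10b (an aligner) and featureCounts 2.0.3 (a read counter) appear in the submitters' processing notes, beside FastQC and SAMtools 1.9. Both GRCm39 and mm10 are listed there, and which of them served the counts is not said. The sources used here give no strand setting or annotation, so reads of overlapping or antisense genes and of near-identical copies cannot be told apart. Per the labels' protocols, each extraction started from the same number of cells and mRNA was selected on oligo-dT beads. One further WT sample was not analysed here, and 1 column that names no sample was not used.

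Counts were filtered with filterByExpr, scaled by TMM and fitted with edgeR 4.0.16 (quasi-likelihood test, genotype only, all 12 libraries, two-sided, Benjamini-Hochberg over 14702 genes, threshold 0.05) in R 4.3.3. The common biological coefficient of variation was 0.932. Standard errors are the fold change divided by the root of the F statistic. Alternatives were RLE scaling, DESeq2 1.42.0, no filter, a filter of 8 CPM in 3 libraries, fits on 2 genotypes, a replicate block, leaving out each library, and setting aside WT 3 and V 3. In counts simulated for KO against WT and tested on 13640 genes, 42% of the 2-fold changes and 78% of the 4-fold changes were recovered, in genes of at least 8 CPM. Lengths are those of the principal GENCODE M21 transcript.

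Members and lists were chosen with earlier results of these data known. Full values are given for the 4 members with the smallest p in each comparison with WT, the 2 in each between mutants, the most abundant member of each role, and any member called. From the other lists, genes called and the 3 with the smallest p in each comparison with WT are named. Other members are given by their ranges.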

Additional observations from a re-analysis of the deposited data

How the results depend on the processing

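Under all 19 alternatives in each of the 6 comparisons, 0 of the 33 replication genes were called, and the smallest adjusted p of any member was 0.109, for Rfc3 in HxD against WT. Leaving out 1 library at a time, the median of the members ran from 0.03 to 0.14 in KO against WT, 0.01 to 0.20 in HxD and 0.01 to 0.16 in V. It ran from -0.06 to 0.03 in HxD against KO, -0.11 to 0.00 in V against KO and -0.10 to 0.01 in V against HxD, so the sign of these last 3 is not settled. The count over all genes moved more, from 32 to between 11 and 212 in KO, from 5 to between 1 and 213 in HxD and from 0 to between 0 and 84 in V, with DESeq2 the highest in each. Between mutants it moved from 1 to as many as 99 in HxD against KO, 3 to 69 in V against KO and 0 to 109 in V against HxD.

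Deviations from the genotype mean had correlations of -0.06 to 0.09 over 18 pairs of same-numbered libraries and -0.10 to 0.11 over 36 other pairs. Of 12 libraries, 5 correlated best with their own number. These values do not settle whether the replicate numbers pair libraries. With the replicate block, 0 members were called, the medians were 0.11 in KO, 0.10 in HxD and 0.03 in V, and the count over all genes was 104, 45 and 8. It was 8 in HxD against KO, 16 in V against KO and 2 in V against HxD, higher than without the block in all 6 comparisons. In the simulated counts, 42% of the 2-fold and 78% of the 4-fold changes were recovered. Changes of 2-fold or less are thus often missed with 3 libraries a group, and some 4-fold changes are missed as well. The intervals of Gins2 and Gins3 are wide, with coefficients of variation of 59.1% and 65.3% between libraries.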
